A study of Mus musculus with 9 samples.

Results

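Nanog WT cells, which are RF8 embryonic stem (ES) cells of the mouse that carry transfected wild-type Nanog, were compared with and without retinoic acid (RA) in cultures that both lacked leukaemia inhibitory factor (LIF). The comparison rests on 2 of the 9 RNA sequencing libraries of the series, chosen by their labels: WT RA and WT no-LIF, 1 library each. The other 7 libraries are the WT culture with LIF and the 3 cultures of RF8 cells transfected with enhanced green fluorescent protein (EGFP) or with Nanog carrying the L122A change (L122A). Routine cultures held 1000 units of LIF per ml, fetal calf serum and puromycin, which selects for transfected cells, and the RA cultures held 5 µM RA. The labels do not give the time in each culture, the promoter of the constructs, the species of the transfected Nanog, whether a transfectant is 1 clone or a pool, or whether reads of the construct are counted as Nanog. They state no replicate, so no test across genes was made: a value differs here when it differs between these 2 libraries, and how it would vary between repeat cultures is not known.

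RA is the acid form of vitamin A and acts through nuclear receptors of the RAR family, which sit with an RXR partner on paired DNA half-sites near their target genes and exchange corepressors for coactivators when RA binds. Early targets include the CYP26 enzymes, which degrade RA, the receptor gene Rarb and the Hox genes at the early-expressed ends of their clusters. In ES cells RA drives loss of the pluripotent state, and Nanog, a homeodomain transcription factor of that state, is normally lost as the cells differentiate.

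The classical RA response element is a direct repeat of a 6-base half-site with a 5-base spacer, and it is shown here for Cyp26a1 and Rarb, which were among the retinoid genes furthest higher with RA. The lines give the 250 bases upstream of the annotated start of Cyp26a1 (GRCm38.p6, chr19:37697558-37697807, plus strand) and of Rarb (chr14:16575477-16575726, minus strand), from RefSeq, 5′ to 3′ in the direction of the gene. Capitals mark the half-sites, which in Cyp26a1 lie on the strand opposite to the gene.
Cyp26a1: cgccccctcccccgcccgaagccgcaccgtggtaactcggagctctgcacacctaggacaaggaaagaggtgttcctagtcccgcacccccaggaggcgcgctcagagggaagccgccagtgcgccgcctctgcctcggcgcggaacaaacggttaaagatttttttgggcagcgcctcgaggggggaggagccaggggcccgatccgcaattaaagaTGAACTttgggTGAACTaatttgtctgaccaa
Rarb: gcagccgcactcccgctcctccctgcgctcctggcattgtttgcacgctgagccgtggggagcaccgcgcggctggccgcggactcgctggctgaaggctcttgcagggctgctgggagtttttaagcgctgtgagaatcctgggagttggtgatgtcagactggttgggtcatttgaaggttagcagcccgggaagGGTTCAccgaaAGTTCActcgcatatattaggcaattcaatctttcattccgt
The repeat spans chr19:37697776-37697792 in Cyp26a1 and chr14:16575513-16575529 in Rarb. Windows from 250 bases before to 50 bases after the start were searched on both strands for 2 half-sites, each of the form AGGTCA or of the form AGTTCA, of the form GGGTCA or of the form GGTTCA, with 5, 2 or 1 bases between them. With a 5-base spacer the repeat was found in 3 of the 8250 genes of this comparison that had a window (0.0364%), namely Cyp26a1, Rarb and Blvrb, a biliverdin reductase gene that stood at 38.1 CPM (counts scaled to the size of the library) without RA and 26.5 CPM with it. Those 3 genes include 2 of the 617 genes at least 4-fold higher with RA (0.324%) and none of the 340 at least 4-fold lower, and 32 of all 32851 windows in the table held the repeat (0.0974%). With a 2-base spacer it was found in 9 of the 8250 genes (0.109%), 2 of them at least 4-fold higher and 1 at least 4-fold lower, and with a 1-base spacer in 23 (0.279%), again 2 and 1. These matches describe letters in a short window only, and binding by receptors was not measured.

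The WT no-LIF library held 26076780 gene counts and the WT RA library 26144980. To give CPM, these totals were adjusted by trimmed-mean (TMM) factors, 0.940 and 1.223. With ribosomal RNA and mitochondrial genes removed, the factors were 0.940 and 1.228. Those genes held 19.04% and 19.65% of counts. Within them the ribosomal RNA gene SSU_rRNA_5 went from 9.44% to 4.30% and mt-Rnr2, the mitochondrial large ribosomal RNA, from 7.93% to 12.4%. The counts of genes higher and lower with these genes removed are given at the end, and any other bearing of these shares was not tested. Defining transcripts of ES cells were present in the WT no-LIF library, with Pou5f1 at 237 CPM, Sox2 at 74.0 CPM and Zfp42 at 599 CPM. In bulk RNA a lower level in every cell and fewer cells with the transcript cannot be told apart, which holds for each value that follows.

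Of the 33495 genes in the file, 10773 reached 5 CPM in the higher of the 2 libraries. Genes were called higher or lower at a log2 ratio of CPM, with a prior count of 2, of 1 or more either way. By this rule 2238 genes (20.8%) were at least 2-fold higher with RA, 1878 (17.4%) at least 2-fold lower and 6657 within 2-fold, and the median log2 ratio was 0.04. At 4-fold the numbers were 842 higher and 515 lower, and at 64-fold 77 and 30. The exact 95% Poisson interval of the ratio excluded 1 for every gene called, which the calling rule made near certain at this depth. It also excluded 1 for 9491 of all 10773 genes, so counting error is small beside the 2-fold threshold. The intervals cover counting error only and hold no variation between cultures. The split depended on scaling: with total counts in place of TMM factors, 3404 genes were higher and 1112 lower, 75.4% of calls higher against 54.4%, and the median moved to 0.45. A gene under 5 CPM in 1 library and well over it in the other passed the minimum through the library where it is high, so its direction is partly set by the filter. The number of such genes is therefore given for the lists below, whose counts and medians are descriptions, to be read beside the 20.8% and 17.4% of all genes. Folds below are relative to the TMM scale, which lies 0.38 log2 units below that of total counts.

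**Figure D1:**
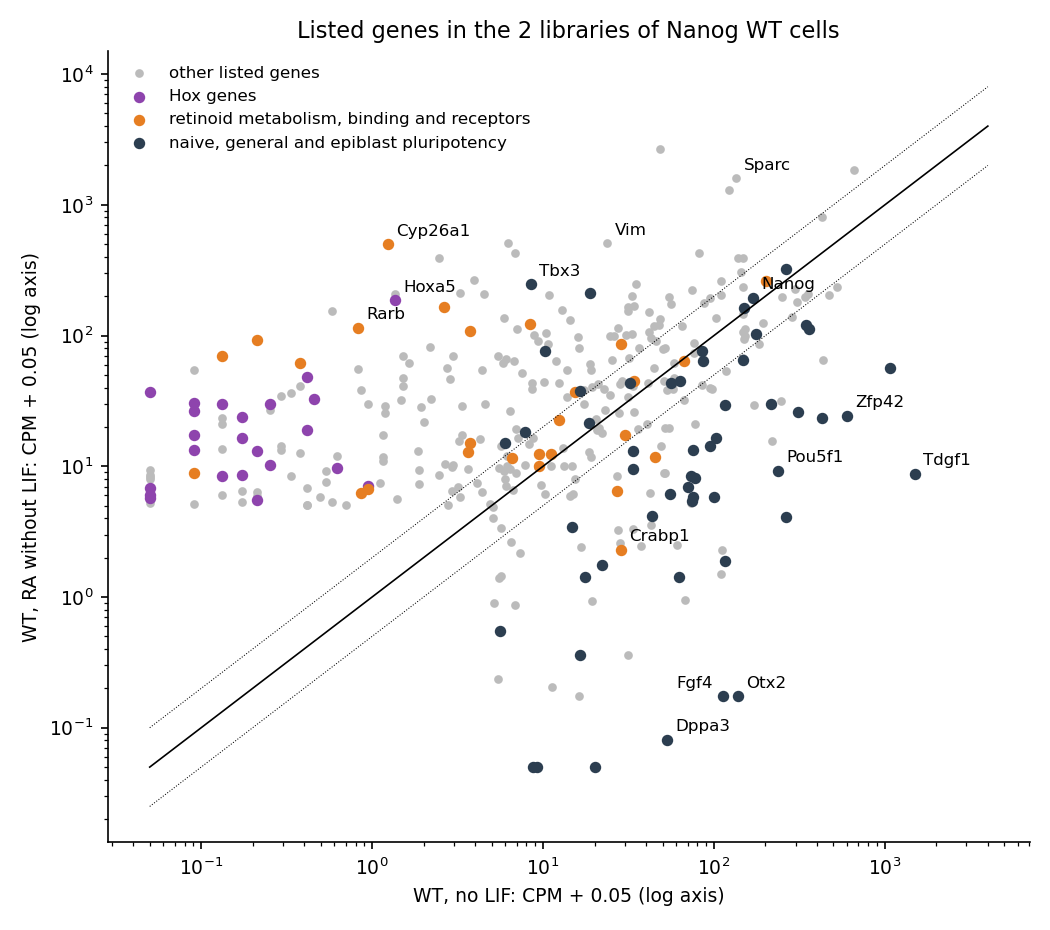
Points are listed genes with at least 5 CPM in the higher of the 2 WT libraries, plotted by its CPM without RA (x) and with RA (y), both plus 0.05 on log axes. The solid line marks equal levels and the dotted lines 2-fold. The Hox genes (purple) sit above the upper dotted line, and Cyp26a1 goes from 1.18 to 498 CPM, whereas Nanog lies near the solid line and Tdgf1 goes from 1491 to 8.72 CPM.

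The genes that handle retinoids differed in both directions, with the RA hydroxylases furthest higher. Of 13 retinoid metabolism and binding genes at 5 CPM or more (18 listed), 10 were at least 2-fold higher with RA and 2 lower, beside 20.8% of all genes higher and 17.4% lower, with a median log2 ratio of 2.81 against 0.04 for all genes. Of these 13, 9 reached 5 CPM only with RA and 1 only without it. Cyp26a1, the main RA hydroxylase of the early embryo (mm9 chromosome 19, 37772343 to 37776018), stood at 1.18 CPM without RA and 498 CPM with it, from 29 and 15941 counts, a ratio of 421 (95% Poisson interval 293 to 629). In EGFP cells it went from 6.98 to 103 CPM and in L122A cells from 0.253 to 481 CPM, so all 3 RA libraries stood above all 3 no-LIF libraries. Cyp26b1, the paralogue with the same activity, went from 0.163 to 91.6 CPM (561-fold, interval 219 to 2061), while Cyp26c1 reached only 3.60 CPM. Per length, with RA, Cyp26a1 stood at 353 FPKM (fragments per kilobase of gene, scaled to library size), Cyp26b1 at 26.9 FPKM and Cyp26c1 at 2.78 FPKM. Dhrs3, which reduces retinaldehyde back to retinol, went from 2.57 to 166 CPM (64.4-fold, interval 50.3 to 84.0).

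Genes for uptake and synthesis were also higher with RA, by less in most cases. Stra6, the membrane receptor that takes up retinol from its plasma carrier, went from 0.326 to 61.9 CPM (189.8-fold, interval 96.1 to 440.2). The retinol dehydrogenase gene Rdh10 went from 3.67 to 15.0 CPM, and Aldh1a2, which makes RA in the early embryo, from 0.816 to 6.16 CPM. Adh1, an alcohol dehydrogenase that can oxidise retinol, had 1 count without RA and 281 with it (215-fold, interval 38.3 to 8537). Rbp4, the retinol carrier of plasma, was 3.56-fold higher. Rdh11, a retinal reductase, differed little (9.38 and 9.94 CPM), and Adh7, Aldh1a1, Aldh1a3 and Lrat stayed below 5 CPM in both libraries.

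The intracellular RA carriers went opposite ways. Crabp2, which delivers RA to its receptors in the nucleus, went from 3.71 to 108 CPM (29.2-fold higher, interval 23.7 to 36.3). Crabp1, its cytosolic relative, went from 28.4 to 2.25 CPM (12.6-fold lower, interval 9.90 to 16.3), and Fabp5, a fatty acid carrier that also binds RA, from 45.2 to 11.7 CPM (3.87-fold lower). In L122A cells Crabp2 was likewise higher (2.23 to 91.3 CPM) and Crabp1 lower (17.4 to 4.71 CPM). In EGFP cells both lay within 2-fold, Crabp2 at 13.4 and 15.0 CPM and Crabp1 at 24.8 and 29.2 CPM. With 1 library per combination, differences between transfectants were not tested here or in any later paragraph.

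Among the receptors, Rarb was high and Rarg low with RA. Rarb, the receptor gene with the element shown (mm9 chromosome 14, 17263355 to 17651381), went from 0.775 to 115 CPM (19 and 3670 counts, 148-fold, interval 94.7 to 246), against 0.343 to 73.6 CPM in EGFP and 0.911 to 80.6 CPM in L122A cells. Per length and without RA, Rara stood at 7.32 FPKM, Rarg at 6.15 FPKM and Rarb at 0.2200 FPKM. Rarg, a receptor known to carry RA responses in embryonal carcinoma cells, went from 26.9 to 6.47 CPM (4.15-fold lower, interval 3.55 to 4.88). With RA the order by FPKM was Rarb (42.6), Rara (12.7) and Rarg (1.93). FPKM uses total counts without TMM factors, and by CPM the log2 ratio of Rara was 0.41, within 2-fold. In EGFP and L122A cells the log2 ratio of Rarg was 0.60 and -0.05. Rxra and Rxrb, the RXR partners, lay within 2-fold at log2 ratios of 0.80 and 0.16, and Rxrg was below 5 CPM in both libraries.

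Of 16 receptor and coregulator genes at 5 CPM or more (17 listed), 6 were at least 2-fold higher and 1, Rarg, lower, beside 20.8% and 17.4% of all genes, with a median log2 ratio of 0.83 and 3 members at 5 CPM only with RA. The count of genes higher was 9 on the scale of total counts. Nr2f2, an orphan receptor known as COUP-TFII, went from 0.0816 to 69.9 CPM, but with 2 counts without RA its ratio of 857 has an interval of 237 to 7083. Its paralogue Nr2f1 went from 0.897 to 6.69 CPM. Nrip1, an RA-inducible corepressor also called RIP140, went from 8.32 to 123 CPM (14.8-fold, interval 12.9 to 17.1). The coactivator Ncoa2 and the orphan receptor Nr2c2 were 3.03-fold and 2.39-fold higher. Nr6a1, an orphan receptor that represses Pou5f1 in differentiating cells, stood at 30.0 CPM without RA and 17.2 CPM with it.

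**Figure D2:**
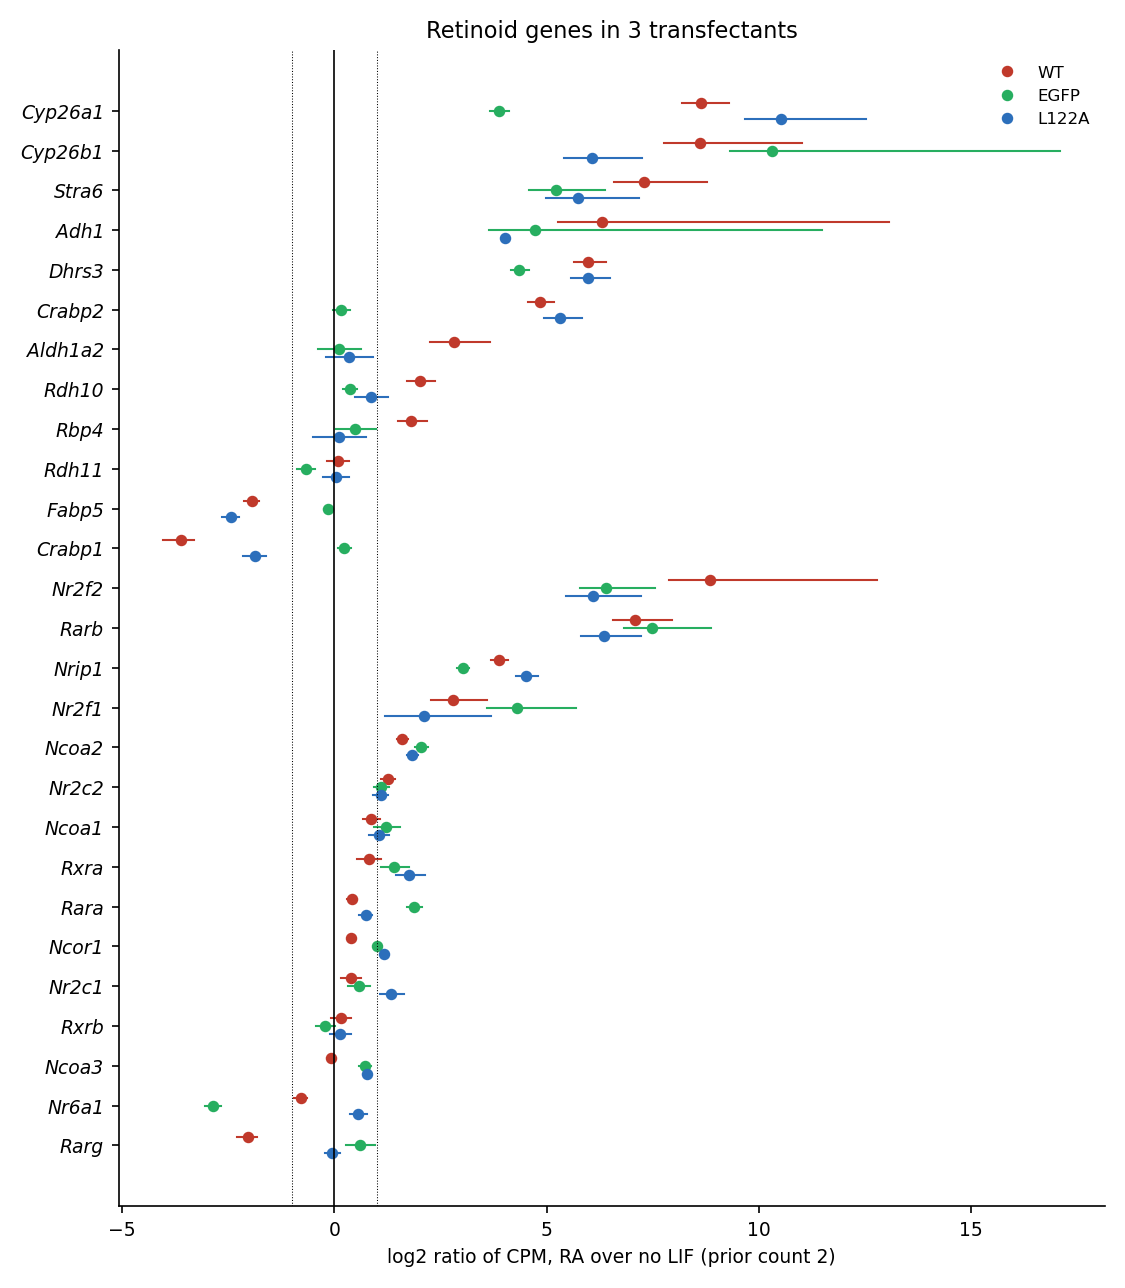
Log2 ratio of CPM (prior count 2) of RA over no-LIF for retinoid genes at 5 CPM or more in WT cells, in WT (red), EGFP (green) and L122A cells (blue), 1 library per culture. Bars are exact 95% Poisson intervals of the ratio without the prior count, left out where a library had no count, and dotted lines mark 2-fold. Cyp26b1, Nr2f2 and Rarb lie far to the right in all 3 transfectants, and Crabp1 and Rarg lie left of the lower dotted line in WT cells.

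Of 17 further genes known as direct or early RA targets at 5 CPM or more (24 in the file), 13 were at least 2-fold higher with RA and 2 lower (median log2 ratio 3.33), and 10 reached 5 CPM only with RA and 2 only without it. Zfp703, a zinc finger corepressor, went from 0.0408 to 54.4 CPM, 1 and 1740 counts, and its relative Zfp503 had no count without RA and 263 with it (at least 67.2-fold higher, from a floor of 3 counts). Tbx2, a T-box repressor, went from 0.0816 to 21.0 CPM and Tshz1, a teashirt zinc finger gene, from 0.245 to 34.5 CPM. Stra8, the gene through which RA starts meiosis in germ cells, went from 2.16 to 32.4 CPM (15.0-fold, interval 11.4 to 20.2). Ets1, an ETS factor, and the forkhead gene Foxa1 were 23.9-fold and 10.6-fold higher. Cyp2s1, a cytochrome P450, was lower (5.51 to 1.34 CPM).

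All 24 Hox genes that reached 5 CPM were at least 2-fold higher with RA, of 39 listed. Hox genes encode homeodomain factors that give position along the body axis, and lie in 4 clusters in the order in which they are switched on. Their median log2 ratio was 6.41, or 5.96 with the 4 genes that had no count without RA set to their lower bound. Each reached 5 CPM through its level with RA, so the filter fixed the direction of genes that were near 0 without it. By cluster, 9 of 11 Hoxa genes, 9 of 10 Hoxb genes, 5 of 9 Hoxc genes and 1 of 9 Hoxd genes reached 5 CPM. The summed level of the Hoxa genes went from 5.06 to 375 CPM, of Hoxb from 1.59 to 245, of Hoxc from 0.857 to 73.4 and of Hoxd from 2.28 to 15.3 CPM.

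Per length, Hoxa5 was the most abundant Hox transcript in the WT RA library at 121.8 FPKM, and Hoxb2 stood at 41.0 FPKM. Hoxa5 (mm9 chromosome 6, 52151752 to 52154586) went from 1.31 to 187 CPM (143-fold, interval 101 to 209). Hoxb1, a hindbrain patterning gene, went from 0.163 to 13.1 CPM. The RA libraries of EGFP and L122A cells held 1.40 and 21.1 CPM of it. Hoxb2 had no count without RA and 1183 with it, at least 302-fold higher. Hoxa6, Hoxc5 and Hoxc6, also without a count before, were at least 46.5-fold, 48.8-fold and 55.7-fold higher.

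Levels within the clusters did not all follow gene order. With RA and per length, Hoxb3 stood at 4.40 FPKM and Hoxb4, Hoxb5, Hoxb6 and Hoxb7 between 13.3 and 25.9 FPKM. Hoxb8 lay lower at 3.21 FPKM, just under the minimum at 4.94 CPM, although both its neighbours were higher (Hoxb9 at 23.2 FPKM). Hoxb13, which lies far from the others at the end of the cluster, reached 17.2 CPM from 1 count (ratio 421, interval 75.2 to 16650.4). In the Hoxa cluster the level per length stepped down in order from Hoxa6 to Hoxa13, with 8.77 FPKM for Hoxa6, 5.29 for Hoxa7, 3.11 for Hoxa9, 2.36 for Hoxa10, 0.480 for Hoxa11 and 0.0900 FPKM for Hoxa13. Hoxc8 was the highest of its cluster per length (25.0 FPKM), from 1 count without RA to 972 with it. Hoxd8 was the only Hoxd gene past the minimum, at 5.50 CPM, and Hoxc11, Hoxc12 and Hoxd12 had no count in either library. Reads in the clusters can be shared with antisense transcripts: Hoxb5os, which overlaps Hoxb6, had no count without RA and 2243 with it (at least 573-fold higher), and Hotairm1, a noncoding RNA of the Hoxa cluster, went from 0.408 to 72.6 CPM. The strand setting of the counting is not given in the sources used here, so overlapping and antisense genes there cannot be told apart.

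**Figure D3:**
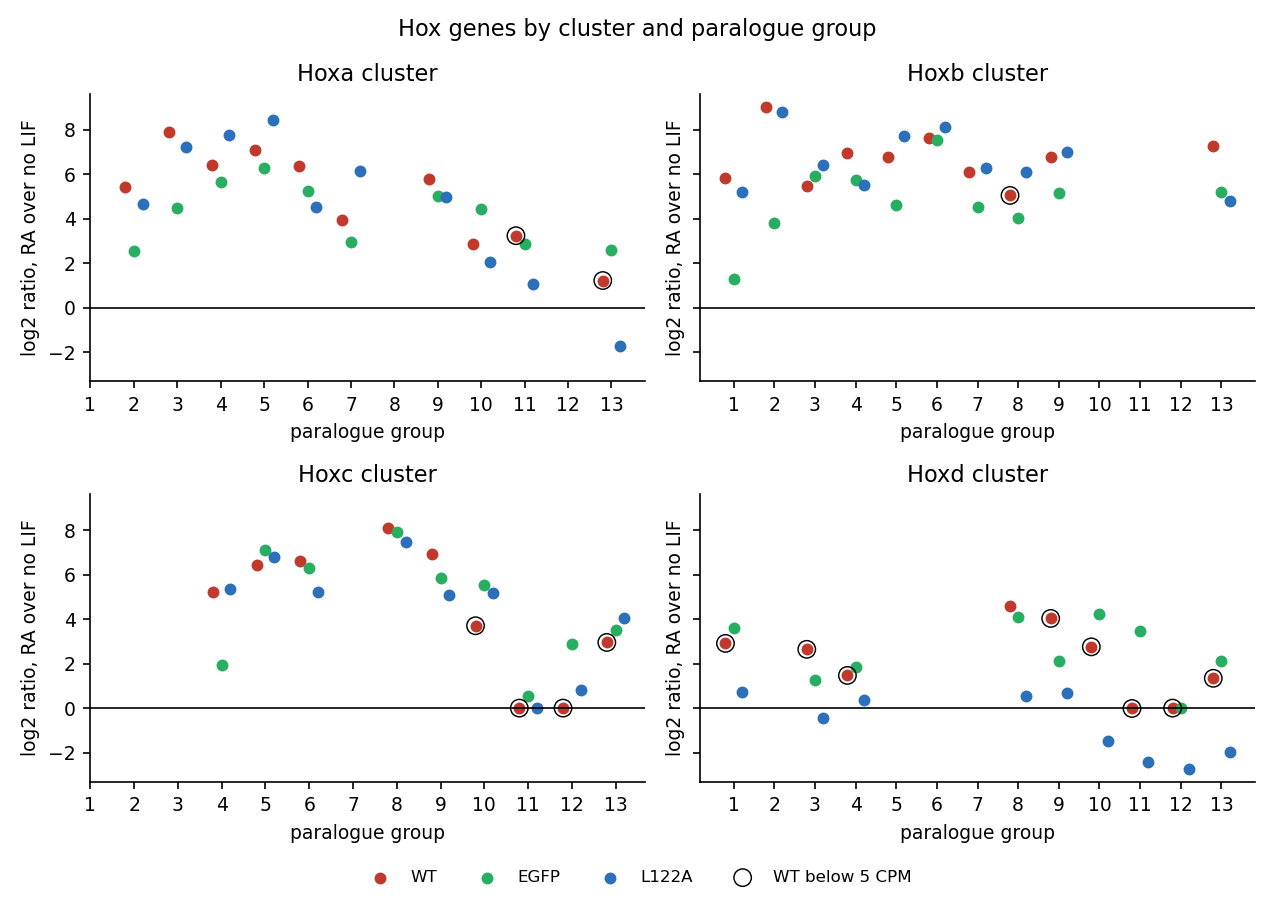
Log2 ratio of CPM (prior count 2) of RA over no-LIF for Hox genes, by cluster (panels) and paralogue group (x), in WT (red), EGFP (green) and L122A cells (blue), 1 library per culture. A black ring marks genes below 5 CPM in both WT libraries. WT points of the Hoxa and Hoxb clusters up to group 9 lie above the line at 0, and 8 of 9 Hoxd points are ringed.

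Hox proteins bind DNA with the TALE homeodomain partners MEIS and PBX, and of 8 such cofactor genes at 5 CPM or more (12 listed, with the Cdx genes) 5 were at least 2-fold higher with RA and none lower (median log2 ratio 2.48), 3 of them at 5 CPM only with RA. Meis1 went from 0.530 to 153 CPM (289-fold, interval 169 to 543) and Meis2 from 3.92 to 267 CPM (68.2-fold, interval 55.8 to 84.4). Meis3 and Pbx2 were also at least 2-fold higher. Pbx3 and Pbx4 lay within 2-fold. The caudal factors Cdx1, Cdx2 and Cdx4, which switch on posterior Hox genes, stayed below 5 CPM, with Cdx2 and Cdx4 at no count with RA.

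Nanog itself was within 2-fold in WT cells. It stood at 168 CPM without RA and 195 CPM with it (log2 ratio 0.21), and at 222 CPM in the WT culture with LIF. In EGFP cells it went from 290.3 to 0.871 CPM and in L122A cells from 129.9 to 258 CPM. Nanog counts with RA in the Nanog transfectants therefore lie above the EGFP value. Endogenous and transfected transcripts cannot be told apart in these counts.

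Most other pluripotency genes were lower with RA in the same WT cells, although Nanog was within 2-fold. Of 23 general pluripotency genes, all at 5 CPM or more, 17 were at least 2-fold lower and none higher (median log2 ratio -2.73), and 21 reached 5 CPM in both libraries. Pou5f1, which encodes OCT4 (mm9 chromosome 17, 35643006 to 35647714), went from 237 to 9.22 CPM (25.7-fold lower, interval 22.9 to 29.0). In EGFP cells it went from 195 to 0.467 CPM and in L122A cells from 446 to 70.04 CPM, so with RA the WT value lay between those of the other 2 transfectants. Sox2, the partner of OCT4, went from 74.0 to 5.38 CPM (13.8-fold lower, interval 11.8 to 16.2). Fgf4, a joint target of both, went from 112 to 0.1251 CPM, 2749 and 4 counts. In L122A cells Fgf4 kept 11.4 CPM with RA against 70.2 without. Tdgf1, the Nodal co-receptor gene Cripto, went from 1491 to 8.72 CPM (171-fold lower, interval 152 to 193), and Utf1, a chromatin factor, from 263 to 4.03 CPM (65.2-fold lower).

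The other 6 members of the general list lay within 2-fold. Sall4, a zinc finger partner of OCT4 and Nanog, stood at 177 CPM without RA and 103 CPM with it (log2 ratio -0.78). The let-7 antagonist Lin28b (84.7 and 75.5 CPM), the growth regulator Myc (32.4 and 42.9 CPM), the translational repressor Trim71 (55.8 and 43.1 CPM), the zinc finger gene Zfp281 and the PRC2 cofactor Jarid2 are the rest of this set. Lin28a, the paralogue of Lin28b, went from 55.3 to 6.10 CPM (9.07-fold lower), and Mycn, a relative of Myc, from 115 to 29.4 CPM. Within each of these pairs of relatives, 1 gene was thus lower and the other within 2-fold.

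Of 16 naive pluripotency genes at 5 CPM or more (17 listed), 10 were at least 2-fold lower with RA and 3 higher (median log2 ratio -3.28). Of these 16, 6 reached 5 CPM only without RA, so the filter partly set their direction. Among the 10 at 5 CPM in both libraries, 4 were at least 2-fold lower and 3 higher. Dppa3, a maternal and germ cell factor also called Stella, went from 52.7 CPM to 1 count. Prdm14 and Tcl1, a germline regulator and a cofactor of the kinase AKT, had 214 and 225 counts without RA and none with it (at least 93.1-fold and 97.9-fold lower). Nr0b1, the orphan receptor DAX1, went from 62.6 to 1.38 CPM, and Zfp42, the ES marker REX1, from 599 to 24.3 CPM (24.6-fold lower, interval 22.9 to 26.5). Esrrb, an orphan receptor and direct Nanog target, went from 75.0 to 5.75 CPM (13.0-fold lower, interval 11.2 to 15.3). In L122A cells Esrrb stood at 114 and 138 CPM and in EGFP cells at 3.47 and 0.156 CPM. The genes higher were Tbx3, a T-box factor downstream of LIF (8.44 to 247 CPM, 29.3-fold, interval 25.5 to 33.8), and the LIF targets Tfcp2l1 (5.96 to 15.0 CPM) and Klf4 (7.75 to 18.4 CPM). Tet2, a DNA demethylase (149.8 and 161 CPM), and Klf5 (63.6 and 45.1 CPM) lay within 2-fold.

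The formative and primed epiblast list, genes that ES cells switch on as they leave the naive state, was lower as well: 12 of 16 genes at 5 CPM or more at least 2-fold lower and 3 higher (median log2 ratio -3.60), and 7 reached 5 CPM only without RA. Among the 9 at 5 CPM in both libraries, 5 were at least 2-fold lower and 3 higher. Otx2, an epiblast and forebrain homeobox gene, went from 139 to 0.1251 CPM (3398 and 4 counts). It stood at 7.04 CPM in the WT culture with LIF, so it was highest without LIF and lowest with RA. Both contrasts use the WT no-LIF library. The same order of the 3 cultures held for Lef1, a Wnt effector (8.27 with LIF, 116 without and 1.84 CPM with RA), and Dnmt3b, a de novo DNA methyltransferase (41.0, 426 and 23.4 CPM). Vrtn, a gene of vertebral number, had 493 counts without RA and none with it, at least 214-fold lower. Fgf5, the classical marker of primed epiblast, went from 33.7 to 9.41 CPM (3.58-fold lower, interval 3.13 to 4.09), against no count with LIF. The columns taken as LIF cultures carry a name found in no label and were assigned by elimination.

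Those higher in this list are also genes of neural and mesenchymal cells: Sox4 (18.9 to 213 CPM, 11.3-fold), Cdh2, which encodes N-cadherin (10.3 to 76.5 CPM), and Sox11 (16.4 to 37.6 CPM). Sall2 lay within 2-fold. The summed level of the naive list went from 1374 to 743 CPM and of the general list from 5319 to 1049 CPM. Most of the naive sum with RA was held by Tbx3, Nanog and Tet2, none of which was lower with RA. The naive sum therefore does not show how far the lower members fell. With RA the general list summed to 609 CPM in EGFP and 1807 CPM in L122A cells, so the WT library lay between them.

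**Figure D4:**
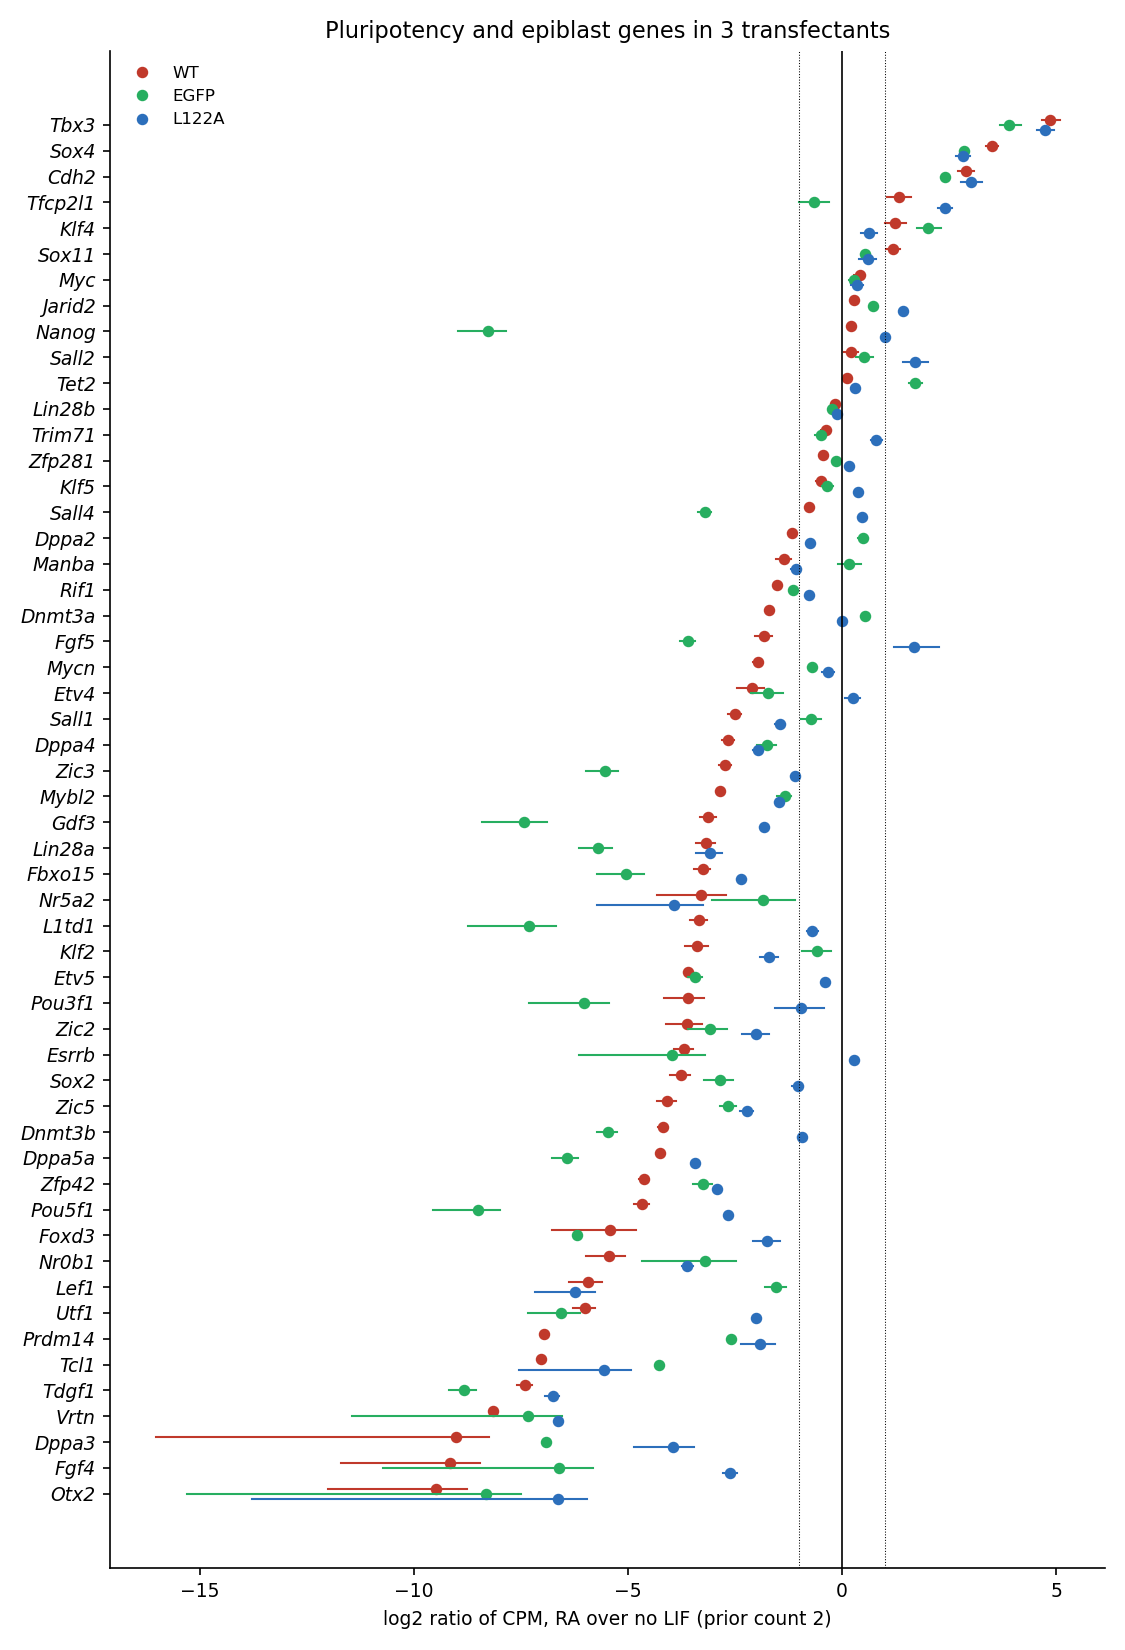
Log2 ratio of CPM (prior count 2) of RA over no-LIF for pluripotency and epiblast genes at 5 CPM or more in WT cells, ordered by WT (red), with EGFP (green) and L122A (blue), 1 library per culture. Bars are exact 95% Poisson intervals without the prior count, left out where a library had no count, and dotted lines mark 2-fold. Most WT points lie left of the lower dotted line, Tbx3 lies at 4.86 on the right, and Nanog is at 0.21 in WT and -8.27 in EGFP cells.

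Genes of the LIF pathway stood higher with RA although neither culture held LIF. Of 15 genes of the LIF receptor, STAT3 and their targets at 5 CPM or more, 10 were at least 2-fold higher and none lower (median log2 ratio 1.41), and 11 reached 5 CPM in both libraries. Stat3, the transcription factor that LIF activates, went from 10.4 to 105 CPM (10.1-fold, interval 8.91 to 11.5), above its 37.9 CPM with LIF. The kinase gene Jak2 went from 5.997 to 66.6 CPM and its relative Jak1 from 32.9 to 103 CPM. The receptor genes Lifr and Il6st went from 13.7 to 54.6 CPM and from 44.6 to 119 CPM. Of the STAT3 targets, 3 lay higher with RA than without it and lower than with LIF: Socs3, a feedback inhibitor, stood at 5.03 CPM against 19.6 with LIF, Bcl3 at 7.41 against 13.8, and Klf4 at 18.4 against 87.2 CPM. Pim1, Pim3, Gbx2 and Icam1, also STAT3 targets, lay within 2-fold of the culture without RA, at log2 ratios of -0.03, -0.69, -0.06 and -0.74. In EGFP and L122A cells the log2 ratio of Stat3 was 2.61 and 2.69.

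BMP signalling genes were mostly higher with RA, while the count of lower Nodal signalling genes rested largely on genes at 5 CPM only without RA. Nodal is a TGF-beta family ligand that sustains the epiblast, and of 12 genes of its pathway at 5 CPM or more 7 were at least 2-fold lower and 2 higher (median log2 ratio -2.13). The median was -0.92 with total counts, -1.28 without ribosomal RNA and mitochondrial genes and -1.29 at a minimum of 1 CPM. Of the 12, 5 reached 5 CPM only without RA, so the filter partly set their direction. Among the 7 at 5 CPM in both libraries, 2 were at least 2-fold lower and 2 higher. The ligand Nodal went from 33.5 to 3.28 CPM, the related ligand Gdf3 from 73.1 to 8.32 CPM and the nuclear partner Foxh1 from 6.81 to 0.813 CPM. Its feedback inhibitors and targets Lefty1 and Lefty2 went from 111 to 2.22 CPM (ratio of no-LIF to RA between 39.5 and 64.2 by its interval) and from 109 to 1.44 CPM (76.0-fold lower, interval 56.8 to 104). The genes higher were the effector Smad3 (6.32 to 26.5 CPM) and the inhibitor Smad7 (36.3 to 79.8 CPM).

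Of 17 BMP pathway genes at 5 CPM or more (25 listed), 15 were at least 2-fold higher and none lower (median log2 ratio 2.01), and 7 reached 5 CPM only with RA. Among ligands Bmp7 went from 2.90 to 9.79 CPM, while Bmp4 was flat (13.0 and 13.8 CPM) and Bmp6 within 2-fold. The receptors Bmpr1a and Bmpr2 went from 109 to 264 CPM and from 18.7 to 60.2 CPM. The BMP effector Smad1 went from 24.7 to 100 CPM and Smad9 from 0.245 to 14.2 CPM. The target genes Id1 (33.9 to 169 CPM), Id2 (25.9 to 98.7 CPM), Id3 (35.1 to 248 CPM) and Msx2 (1.47 to 41.3 CPM) were all higher, as was the feedback inhibitor Smad6 (1.10 to 10.9 CPM). Id genes block basic helix-loop-helix factors and Msx genes encode homeodomain repressors.

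The FGF pathway divided between ligands and receptors. Of 15 genes at 5 CPM or more, 5 were at least 2-fold higher and 8 lower (median log2 ratio -1.28, but 0.04 with a minimum of 1 CPM and 0.29 with a minimum of 20 CPM, so the median has no stable sign). All 4 ligands that reached 5 CPM were lower: Fgf4 and Fgf5, Fgf15 (16.1 to 0.1251 CPM) and Fgf17 (11.3 to 0.156 CPM). Fgf4, Fgf15 and Fgf17 are among the 4 of the 15 genes that reached 5 CPM only without RA, so the filter partly set their direction. Another 10 reached it in both libraries and 1 only with RA. Both receptors that reached 5 CPM were higher, Fgfr2 from 7.02 to 112 CPM (15.98-fold, interval 13.7 to 18.7) and Fgfr1 from 31.7 to 67.8 CPM. The targets split, with Etv5 (311 to 25.8 CPM), Etv4 and the inhibitor Spry4 (42.4 to 6.19 CPM) lower and the inhibitors Spry1 (10.1 to 44.3 CPM), Dusp4 (4.53 to 29.7 CPM) and Dusp6 higher.

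Of 17 Wnt pathway genes at 5 CPM or more (33 listed), 10 were at least 2-fold higher and 2 lower (median log2 ratio 1.47), and 6 reached 5 CPM only with RA and 1 only without it. The Frizzled receptor Fzd7 went from 31.4 to 165 CPM, Fzd1 from 1.10 to 17.4 CPM, and the noncanonical ligand Wnt5a from 0.490 to 9.16 CPM. The Wnt enhancer Rspo3 went from 0.326 to 12.6 CPM and the secreted inhibitor Sfrp5 from 0.367 to 6.79 CPM. Nuclear effectors split: Lef1 and Tcf7 (97.2 to 39.1 CPM) were lower, and Tcf7l2 (8.61 to 38.7 CPM) and Tcf7l1 (21.1 to 42.7 CPM) higher. Axin2, a common readout of canonical Wnt signalling, stood at 10.3 CPM without RA and 6.13 CPM with it, within 2-fold.

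Lineage markers were read next, beginning with endoderm. Of 12 endoderm transcription factor genes at 5 CPM or more (17 listed), 11 were at least 2-fold higher with RA and 1, Otx2, lower (median log2 ratio 3.38). Of these 12, 8 reached 5 CPM only with RA, 1 only without it and 3 in both, so most of the count was set by the filter. Gata6 and Gata4, which specify primitive endoderm, went from 0.204 to 26.9 CPM (132-fold, interval 56.2 to 407) and from 1.96 to 21.8 CPM. Sox7, expressed in the same lineage, went from 1.14 to 25.7 CPM. Foxa2 had no count without RA and 272 with it (at least 69.5-fold higher). In EGFP cells Foxa2 stood at 2.21 and 1.24 CPM and in L122A cells at 0.152 and 1.46 CPM.

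The basement membrane and parietal endoderm list was higher throughout: all 16 genes at 5 CPM or more (17 listed) were at least 2-fold higher (median log2 ratio 3.58), 9 of them at 5 CPM in both libraries and 7 only with RA. The chains of type IV collagen, Col4a1 and Col4a2, went from 6.81 to 429 CPM (62.9-fold, interval 54.0 to 73.7) and from 4.45 to 208 CPM. Laminin chains followed, Lama1 from 1.31 to 209 CPM (160.5-fold, interval 114 to 235), Lamb1 from 41.6 to 151 and Lamc1 from 82.1 to 426 CPM. Sparc, a matrix glycoprotein, went from 134 to 1593 CPM, the growth factor receptor Pdgfra from 2 counts to 23.3 CPM, and Plat, tissue plasminogen activator, from 2.12 to 81.5 CPM. Pth1r, the parathyroid hormone receptor that marks parietal endoderm, went from 1.43 to 32.2 CPM, but Thbd, a further marker, stayed at 0.313 CPM. The summed level of the 17 genes went from 415 to 3855 CPM in WT, against 5368 CPM with RA in EGFP and 1760.3 CPM in L122A cells.

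Visceral endoderm genes were few. Of 21 in the file 7 reached 5 CPM, with 5 at least 2-fold higher and 1 lower (median log2 ratio 1.81), and 3 reached 5 CPM only with RA. The endocytic receptor Cubn went from 1.47 to 69.9 CPM, its partner Lrp2 from 25.2 to 64.5 CPM and their adaptor Dab2 from 5.79 to 61.8 CPM. Ttr, the thyroxine and retinol carrier, had no count without RA and 253 with it (at least 64.6-fold higher). Other markers that define the tissue stayed low: Afp stood at 0.969 CPM with RA, Apob at 1.38, Amn at 0.532, and Apoa4 had no count. Apoe, expressed in many cells, was lower (52.0 to 8.76 CPM). Trf, which encodes the iron carrier transferrin, lay within 2-fold (6.65 and 11.5 CPM), and the other 14 of the 21 markers lay below 5 CPM in both libraries.

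Most streak and mesoderm markers lay below 5 CPM in both libraries. Of 26 genes 6 reached 5 CPM, 5 of them only with RA and 1 only without it, so the filter fixed their direction. The streak factors T (Brachyury), Mixl1 and Eomes were at 0.0313, 1.06 and 1.94 CPM with RA. Foxc2 and Gata5, without a count before, reached 9.29 and 5.19 CPM (at least 75.9-fold and 42.4-fold higher). Meox1, a somite homeobox gene, went from 0.816 to 38.4 CPM and Lhx1 from 0.245 to 13.4 CPM. The somite gene Tcf15 was lower (19.3 to 0.876 CPM). The summed level of the list went from 37.00 to 102 CPM with RA in WT cells. In L122A cells it went from 31.3 to 163 CPM and in EGFP cells from 187 to 80.1 CPM.

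Neural markers did not move together. Of 35 genes 12 reached 5 CPM, with 6 at least 2-fold higher, each at 5 CPM only with RA, and 4 lower, 2 of them at 5 CPM only without it. Of the defining markers, Sox1, Neurog1 and Nkx6-1 had no count in either library while Olig2 stood at 0.0313 CPM with RA. Higher genes included Lhx2, Emx2, the migration gene Dcx (0.163 to 5.85 CPM), Ncam1 (2.69 to 56.2 CPM) and the filament gene Nes (4.37 to 54.5 CPM). Lower were Stmn2, a microtubule regulator (219 to 15.5 CPM), the neuronal tubulin Tubb3 (16.7 to 2.38 CPM), Neurod1 and Hes6. Pax6 was flat at 5.997 and 7.04 CPM. The summed level of the list was 289 CPM without RA, of which Stmn2 held 219, and 197 CPM with it.

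Of 6 neural crest genes at 5 CPM or more, 5 reached it only with RA and 1, Foxd3, only without it, so the filter fixed their direction, with Sox9 going from 0.326 to 41.0 CPM and Snai2 from 1.14 to 28.7 CPM. The defining crest factor Sox10 stood at 0.469 CPM and Tfap2a at 1.501 CPM with RA. Among 6 trophectoderm genes at 5 CPM or more, 3 of them so only with RA and 1 only without it, 4 were at least 2-fold higher: Gata3 (0.775 to 55.2 CPM, 71.2-fold, interval 45.5 to 119), Gata2 (0.571 to 11.9 CPM) and the keratins Krt8 and Krt18 (33.1 to 201 CPM). The trophoblast determinants Cdx2 and Elf5 were at 0 and 0.188 CPM with RA, and Tfap2c was lower (5.59 to 1.41 CPM). Of 13 blood and endothelial markers only Runx1 (1.84 to 7.29 CPM) and Pecam1, which ES cells also express (27.3 to 3.22 CPM), reached 5 CPM.

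**Figure D5:**
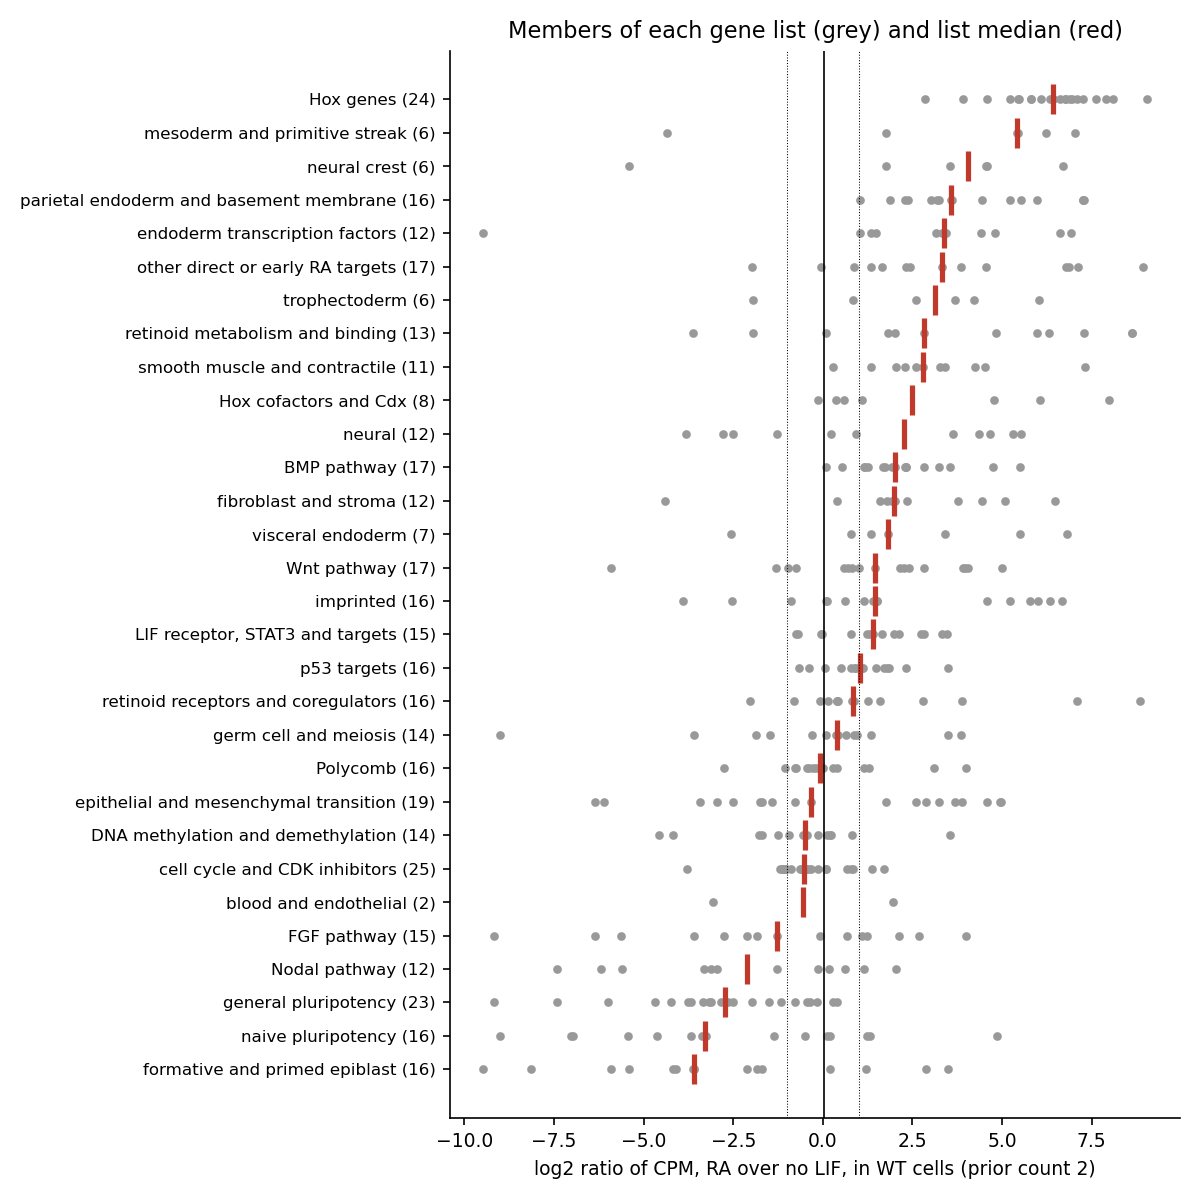
Each grey point is a gene at 5 CPM or more in the higher WT library, placed by its log2 ratio of CPM (RA over no-LIF, prior count 2) in the row of its list, with the number of such genes in brackets; a few genes without reported values are counted but not drawn. Red bars are list medians, the black line is the median of all genes and dotted lines mark 2-fold. Medians run from 6.41 for Hox genes to -3.60 for formative and primed epiblast genes.

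Genes of connective and contractile cells were read together. Of 12 fibroblast and stroma genes at 5 CPM or more (18 listed), 10 were at least 2-fold higher and 1 lower (median log2 ratio 1.98). Of these 12, 8 reached 5 CPM only with RA, 1 only without it and 3 in both, so most of the count was set by the filter. Vim, the mesenchymal filament gene, went from 23.5 to 507 CPM (21.6-fold, interval 19.9 to 23.5) and fibronectin, Fn1, from 74.3 to 223 CPM. The fibrillar collagens Col3a1 and Col1a1 went from 2 counts to 13.6 CPM and from 3.30 to 17.2 CPM. Lum and Col6a1 had no count in either WT library, and Thy1 was lower (5.38 to 0.188 CPM). The list summed to 834 CPM with RA in WT, 3518 CPM in EGFP and 767 CPM in L122A cells. Of 11 smooth muscle and contractile genes at 5 CPM or more, 10 were at least 2-fold higher (median log2 ratio 2.79) and 10 reached 5 CPM in both libraries, led by the actin gene Acta2 (2.41 to 392.1 CPM, 163-fold, interval 126 to 214), its binding protein Tagln (10.7 to 204 CPM) and the matricellular gene Ccn1 (5.83 to 137 CPM). In EGFP cells Tagln and Ccn1 lay within 2-fold, at log2 ratios of 0.64 and 0.78.

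Epithelial genes split by kind. Of 19 genes of the epithelial to mesenchymal transition at 5 CPM or more, 9 were at least 2-fold higher and 8 lower, with a median log2 ratio of -0.33 (0.88 on the scale of total counts, 0.72 at a minimum of 1 CPM and 0.91 at 20 CPM, so the median has no stable sign). Of these 19, 9 reached 5 CPM in both libraries, 5 only with RA and 5 only without it. The filter thus partly set the direction of genes at 5 CPM in 1 library only, such as Esrp1, Grhl2, Cldn7, Zeb1 and Zeb2. Among the 9 at 5 CPM in both, 4 were at least 2-fold higher and 4 lower. The splicing factor Esrp1 and the transcription factor Grhl2, which keep cells epithelial, went from 67.5 to 0.907 CPM (74.4-fold lower, interval 51.6 to 111) and from 31.5 to 0.313 CPM (101-fold lower, interval 54.4 to 211). The adhesion gene Epcam went from 246 to 31.8 CPM and the claudin Cldn7 from 28.1 to 2.53 CPM. E-cadherin, Cdh1, was within 2-fold (357 and 209 CPM). Keratins Krt8, Krt18 and Krt19 were higher with RA, as were the repressors of epithelial genes Zeb1 (1.88 to 28.4 CPM), Zeb2 (1.47 to 47.0 CPM) and Snai2, and the mesenchymal cadherins Cdh2 and Cdh11.

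Most cell cycle genes lay within 2-fold. Of 25 genes at 5 CPM or more, 8 (32.0%) were at least 2-fold lower and 2 (8.0%) higher, beside 17.4% and 20.8% of all genes. Their median log2 ratio was -0.53, and 23 reached 5 CPM in both libraries and 2 only with RA. On the scale of total counts 1 was lower and 5 higher, so most of these calls depended on the scaling. Ccnd1, cyclin D1, was furthest lower, from 73.8 to 5.22 CPM (14.1-fold lower, interval 12.1 to 16.7). The replication clamp Pcna went from 469 to 205 CPM and Mki67, a marker of cycling cells, from 147 to 237 CPM. The inhibitors Cdkn1a and Cdkn2b were higher, Cdkn1a from 30.7 to 101 CPM. Of 16 p53 targets 9 were at least 2-fold higher and none lower (median log2 ratio 1.04, 12 higher on the scale of total counts), with the death receptor Fas going from 0.449 to 5.82 CPM and Ccng1, cyclin G1, from 657 to 1833 CPM. Of these 16, 14 reached 5 CPM in both libraries and 2 only with RA. The pro-apoptotic gene Bax stood at 149 CPM without RA and 93.9 CPM with it, and Pmaip1 at 13.2 and 10.1 CPM.

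Outside the lists, the 20 largest ratios upward among genes at 20 CPM or more held matrix and signalling genes beside the Hox cluster RNAs. Pmp22, a membrane protein of myelin and of many other cells, went from 8.08 to 880.3 CPM (109-fold, interval 94.8 to 126), and Ecm1, a secreted matrix protein, from 1.67 to 545 CPM (326-fold, interval 239.9 to 454). The collagen gene Col12a1 had 1 count without RA and 2544 with it, a ratio of 1949.9 (interval 349.7 to 77047). Edn1, the vasoconstrictor peptide endothelin, had no count and then 811 (at least 207-fold higher). Fibrillin Fbn2 went from 1.92 to 154 CPM, the semaphorin and VEGF receptor Nrp1 from 0.163 to 31.4 CPM, the proteoglycan Gpc6 from 1.47 to 95.6 CPM and the focal adhesion gene Tgfb1i1 from 0.816 to 54.0 CPM. The remaining members of this set are S100g, Pla2g7, Cemip, Sh3bgr, Gfra3, Krt20, Gm12840, Ppp2r2b, Nhsl2 and Lhfpl2, with log2 ratios from 5.34 to 8.19.

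Among the 20 largest ratios downward, Slc7a3, a cationic amino acid transporter, went from 197 to 2.09 CPM (93.9-fold lower, interval 73.8 to 121). Enpp2, the enzyme autotaxin, went from 37.7 to 0.406 CPM, against 0.640 CPM with LIF. Pla2g10, a secreted phospholipase, went from 61.8 to 0.156 CPM and Rab25, a trafficking GTPase of epithelial cells, from 21.9 CPM to 1 count. Germline genes of this set are Tdrd12, which acts in the piRNA pathway (108 to 2.501 CPM), and Morc1, a repressor of transposons in male germ cells (57.3 to 2.06 CPM). The zinc finger genes Rex2, Zfp459, Zfp981 and 2410141K09Rik belong to families of near-identical copies, and Rpl27-ps2 is a pseudogene, so how reads were assigned to them is uncertain. The others, Nphs1, AC140430.1, AC113276.1, Gtsf1l, Hpcal4, Pipox, 1700019D03Rik, Pycard and Ap1m2, had log2 ratios from -8.50 to -4.70.

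The WT response was set beside the same ratio in EGFP and L122A cells, which share no library with it. Of the 2238 genes at least 2-fold higher in WT cells, 1531 (68.4%) were also at least 2-fold higher in EGFP cells, where the background is 22.4%, 1719 (76.8%) in L122A cells, where it is 22.6%, and 1282 (57.3%) in both. Of the 1878 lower, 1242 (66.1%) were also lower in EGFP cells (background 15.8%), 1344 (71.6%) in L122A cells (20.7%) and 961 (51.2%) in both. The backgrounds are shares of 10645 genes in EGFP and 10599 in L122A cells, those at 5 CPM or more in the higher library there. The WT genes set beside them needed 5 CPM in a WT library only, so the gene sets differ. In the opposite direction by 2-fold were 33 and 4 of the higher genes, and 29 and 16 of the lower genes, in EGFP and L122A cells. Across the 10773 genes the log2 ratios of WT cells had a Pearson correlation of 0.81 with EGFP and 0.85 with L122A cells, given as a description, since genes are not replicates and share depth and length between libraries.

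Single genes that stood furthest from the mean of the other transfectants were chosen by that difference and are described only. Nt5e, the ecto-nucleotidase CD73, went from 1.51 to 9.22 CPM in WT, from 64.6 to 2.92 CPM in EGFP and from 1.52 to 6.84 CPM in L122A cells, so its EGFP value without RA was the one that stood apart. S100g, a calcium-binding protein, reached 32.6 CPM with RA in WT, against 1.09 in EGFP and 1.07 CPM in L122A cells. Pla2g7, a lipoprotein-associated phospholipase, went from 0.163 to 20.2 CPM in WT and from 1.11 to 2.13 CPM in L122A cells, but from 8.05 to 52.9 CPM in EGFP cells. Parm1, a mucin-like protein gene, reached 46.8 CPM with RA in EGFP cells against 5.60 in WT and 6.64 CPM in L122A cells. Aldh1a3, an RA-synthesising enzyme, reached 22.6 CPM with RA in L122A cells against 1.31 CPM in WT and 2.02 CPM in EGFP cells. Has2, the hyaluronan synthase, went from 6.81 to 0.594 CPM in WT, from 55.8 to 9.98 in EGFP and from 1.16 to 5.10 CPM in L122A cells. Srgap3, Ccn4 and Serpinb6c, also in this set, lay below 10 CPM in both WT libraries.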

How the data were processed

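The raw counts of reads per gene were made by the authors and deposited without normalization, per the file headers, beside FPKM values, which the authors had normalized per the file headers. In the deposited file, 100% of genes above 5 FPKM matched count divided by length and by the library's total count within 1%. The submitters' processing notes name TopHat2 2.0.11 and the mm9 genome build. How reads were counted per gene, and with which strand setting, is not given in the sources used here. Columns for the cultures with LIF carry a name that is in no label and were assigned by elimination.

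Counts of 33495 genes, 28692 of which matched a symbol, were turned into CPM with TMM factors (edgeR 4.0.16, R 4.3.3) fitted over all 9 libraries on genes at 1 CPM or more in at least 3. The log2 ratio of CPM used a prior count of 2, and a call needed 2-fold and 5 CPM in the higher library. Exact conditional 95% Poisson intervals of the ratio (Python 3.11.15, scipy 1.17.1) cover counting error only, at 26076780 and 26144980 counts, and were tested on simulated data. Where a library had no count, a floor of 3 counts in that library gave a lower bound of the fold. Promoter windows and sequences came from RefSeq (GRCm38.p6), matched by symbol. No coordinates were moved between builds. Some members are counted in the lists but their values are not reported here.

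With 1 library per culture no p-value was computed. Members and lists (30 lists, 545 genes, of which 537 matched) were chosen with earlier results of these data known. Named are Nanog, list members at 5 CPM or more, defining markers below it, the 20 largest ratios each way outside the lists at 20 CPM or more, and the 10 largest differences each way between WT cells and the mean of EGFP and L122A cells. Alternatives were total counts, relative log expression factors, removal of ribosomal RNA and mitochondrial genes, a prior count of 0.5, minimums of 1 and 20 CPM, and FPKM with a pseudocount of 1.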

Additional observations from a re-analysis of the deposited data

Results flagged for a closer look

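Among the genes named, 2210409E12Rik, a gene of unknown role, was the one that lay at least 2-fold higher with RA in WT cells and at least 2-fold lower in both other transfectants. It stood at 4.32 CPM without RA and 28.0 CPM with it in WT cells (log2 ratio 2.67), at 1.45 and 0.435 CPM in EGFP cells (log2 ratio -1.59) and at 47.4 and 16.2 CPM in L122A cells (log2 ratio -1.55). In the WT culture with LIF it stood at 26.4 CPM, near its level with RA. With 1 library per culture the difference between transfectants was not tested.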

How the results depend on the processing

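The counts of genes called depended on the scaling and on the minimum level. With total counts, 3404 genes were at least 2-fold higher and 1112 lower, and the median log2 ratio of all genes was 0.45. At a minimum of 1 CPM 3019 genes were lower and the median was 5.6e-05, and at 20 CPM 1265 were higher and 1220 lower with a median of -0.029. With FPKM and a pseudocount of 1, 938 genes were lower and the median was 0.36. Several list medians rest on which few members pass the minimum. The FGF pathway turned to 0.038 at 1 CPM and 0.29 at 20 CPM, and the epithelial to mesenchymal list to 0.72 and 0.91 there and to 0.88 with total counts. At 1 CPM mesoderm moved from 5.43 to 1.89, neural from 2.27 to 0.97 (3.996 with total counts), neural crest from 4.05 to 2.66, trophectoderm from 3.14 to 1.49 and Nodal from -2.13 to -1.29 (-0.92 with total counts). At 20 CPM retinoid metabolism moved from 2.81 to 5.41, Hox cofactors from 2.48 to 3.87 and germ cell genes from 0.39 to -0.29. Hox genes moved to 7.01 with a prior count of 0.5, 7.02 at 20 CPM and 3.36 with FPKM, where fibroblast and stroma genes moved to 1.03 and cell cycle genes to -0.14. The minimums change which genes are counted, and for the other shifts the cause was not tested. Relative log expression factors and removal of ribosomal RNA and mitochondrial genes moved none of these counts by over 1.5 times. After that removal, 2372 genes were at least 2-fold higher and 1991 lower. Of the 327 named genes at least 2-fold apart, 312 remained so with total counts and 303 with FPKM. None changed sign under any of the alternatives, but this was nearly fixed beforehand. Each gene was chosen as at least 2-fold apart, and total counts shift ratios by 0.38 log2 units only. No paired analysis was possible because the labels give no replicate numbers and each culture has 1 library. Variation between cultures is not measured by any value here. In WT cells 3 counts equal 0.122 CPM without RA and 0.0938 CPM with it, so values near these rest on few counts.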

Other observations

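Imprinted genes, which are expressed from 1 parental copy and many of which govern fetal growth, were mostly higher with RA. Of 16 at 5 CPM or more (18 in the file), 10 were at least 2-fold higher and 2 lower, with a median log2 ratio of 1.45, and 11 reached 5 CPM in both libraries. Peg3, a zinc finger gene, went from 48.3 to 2654 CPM (54.9-fold, interval 51.8 to 58.2). The neighbours H19, a noncoding RNA, and Igf2, a growth factor, went from 6.201 to 511 CPM and from 3.22 to 211 CPM, although each is expressed from the opposite parental copy. Dlk1, a Notch-related surface protein, went from 0.286 to 36.6 CPM and Plagl1, a zinc finger regulator, from 1.59 to 61.7 CPM. The lower genes were Grb10, an inhibitor of insulin and IGF signalling (172 to 29.5 CPM), and Phlda2, a brake on placental growth (37.3 to 2.41 CPM). Log2 ratios of Peg3 were 3.68 in EGFP and 4.85 in L122A cells, and of H19 4.18 and 6.97. Parental origin was not measured.

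Of 16 Polycomb genes at 5 CPM or more, 5 were at least 2-fold higher with RA and 2 lower, beside 20.8% and 17.4% of all genes, 4 of them at 5 CPM only with RA. The median log2 ratio of -0.09 turned to 0.38 with total counts, 0.28 with FPKM and 0.01 without ribosomal RNA and mitochondrial genes. Bmi1, a core PRC1 subunit, went from 2.81 to 46.3 CPM and its partner Phc2 from 3.30 to 28.7 CPM, whereas the paralogue Phc1 went from 433 to 64.6 CPM. The PRC2 core genes Ezh2, Eed and Suz12 lay within 2-fold, with log2 ratios of 0.00, -0.44 and -0.75. Among 14 DNA methylation genes at 5 CPM or more 5 were at least 2-fold lower and 1 higher (median -0.50). Of these 14, 11 reached 5 CPM in both libraries, 2 only with RA and 1 only without it. Dnmt3l, the cofactor of the de novo enzymes, went from 60.9 to 2.47 CPM, Dnmt3a from 361 to 112 CPM and the demethylase Tet1 from 48.9 to 14.2 CPM, while Tet3 reached 5.00 CPM from 0.367 and Dnmt1, the maintenance enzyme, stood at 76.7 and 88.3 CPM. Of 14 germ cell and meiosis genes at 5 CPM or more 3 (21.4%) were at least 2-fold higher and 4 (28.6%) lower, beside 20.8% and 17.4% of all genes. In both libraries 11 of them reached 5 CPM, 1 did so only with RA and 2 only without it. Rec8, a meiotic cohesin subunit, went from 8.81 to 100.2 CPM, while Sycp3, of the synaptonemal complex, went from 42.9 to 3.50 CPM.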
